A study of Mus musculus with 48 samples.

Results

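The cell cycle and proliferation genes described here are 46 genes taken from lists by function: 32 that act in mitosis, 12 that act in S phase, and the transcription factors Foxm1 and E2f8. They were followed in the liver of mouse F1 offspring on Affymetrix gene arrays. The array annotation named 45 of the 46, out of 19938 genes that had a probe set with a single gene symbol. Ccnb1 was not named there, so its level is not analysed here, but its promoter window is counted below. Each gene was read from its single-symbol probe set with the highest mean over all 48 arrays. A filter on the mean level (log2 value of at least 5.46, the 40th percentile of all probe sets) kept 13542 genes, among them 24 of the 31 annotated mitotic members, all 12 S phase members, Foxm1 and E2f8. The 7 mitotic members under the filter were Kif4, Bub1, Cenpe, Prc1, Cdca8, Ttk and Ndc80.

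The median liver lobe was taken at 3 weeks of age from F1 animals of either sex, with the sex of each animal not given. Their sires, the F0 males, were fed either control or low protein diet between 3 and 12 weeks of age. The offspring carried 1 of 3 genotype labels, wild-type, ATF7+/- or ATF7+/+, and neither the strain, the kind of ATF7 allele nor the difference between wild-type and ATF7+/+ offspring is stated. The groups are called WT_CD and WT_LPD (wild-type, sire on control or low protein diet), ATF7HET_CD and ATF7HET_LPD (ATF7+/-), and ATF7WT_CD and ATF7WT_LPD (ATF7+/+), with 8 arrays each. The arrays of WT_CD replicates 4 and 5, and those of ATF7WT_CD replicates 7 and 8, differed on variable genes by 1.45 and 1.32 times as much as on stable genes, where the next closest pair of arrays had a ratio of 2.25. Each of these pairs was averaged and counted as 1 sample, which left n = 7 in these groups and n = 8 in the others.

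All 12 annotated hepatocyte markers passed the filter, as did 13542 of the 19938 genes. All annotated markers of stellate, endothelial and Kupffer cells passed too, so passing the filter does not by itself show liver identity. Atf7 itself was lower in ATF7+/- than in ATF7+/+ liver (log2 difference -0.37 ± 0.06 (SE), limma adjusted p = 0.00124), while the difference from wild-type liver was -0.20 ± 0.06 (limma adjusted p = 0.242). Probe sets without a gene name divided the 48 arrays between set A (18 arrays, 3 in each group) and set B (30 arrays, 5 in each group), which no label names. The diet differences and the comparison of ATF7+/- with ATF7+/+ are also given within each set; whether they differed between sets was not tested. The replicates are described as independent experiments, with no litter or sire named, so the p-values measure the spread between these samples, and the number of arrays limits their precision.

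A dividing cell first copies its DNA in S phase, which needs nucleotide supply (Rrm1, Rrm2, Tyms, Tk1), loading of the Mcm2 to Mcm7 helicase by factors such as Cdc6, and the polymerase clamp Pcna. It then condenses, aligns and parts its chromosomes in mitosis under cyclin-dependent kinase 1 and its A and B type cyclins. S phase genes are known targets of E2F factors, and mitotic genes are known targets of the DREAM and MuvB complexes with B-Myb and Foxm1, which read a promoter element called the CHR, often beside CCAAT boxes bound by NF-Y. The liver of a mouse at weaning is still growing, and some of its hepatocytes become binucleate or polyploid at about that age.

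The promoters of the members parted by class for some sequences and not for others. RefSeq windows (GRCm38.p6) of 250 bases before to 50 bases after the start were at hand for 39 of the 46 members; Ccna2, Kif20a, Aurkb, Tpx2, Dlgap5, Mcm4 and Foxm1 had none in the table. Both strands were searched for a CHR (TTTGAA or TTCGAA), for CCAAT, and for 4 strong E2F sequences (TTTCCCGC, TTTCGCGC, TTTGCCGC or TTTGGCGC); overlapping matches were kept. Shown here as examples are the windows of 4 mitotic and 2 S phase members, read 5′ to 3′ along the gene's own strand, with every match in capitals. A match on the other strand reads as its reverse complement, so that CCAAT appears as ATTGG.
Ccnb2 (chr9:70421505-70421804, minus strand, GRCm38.p6): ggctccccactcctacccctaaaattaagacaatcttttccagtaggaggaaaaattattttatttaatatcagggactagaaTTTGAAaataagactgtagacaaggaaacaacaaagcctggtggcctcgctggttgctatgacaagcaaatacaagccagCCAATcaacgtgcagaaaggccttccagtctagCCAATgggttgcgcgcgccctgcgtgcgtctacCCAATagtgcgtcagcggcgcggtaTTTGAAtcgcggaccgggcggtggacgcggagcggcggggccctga
Cdk1 (chr10:69352863-69353162, minus strand, GRCm38.p6): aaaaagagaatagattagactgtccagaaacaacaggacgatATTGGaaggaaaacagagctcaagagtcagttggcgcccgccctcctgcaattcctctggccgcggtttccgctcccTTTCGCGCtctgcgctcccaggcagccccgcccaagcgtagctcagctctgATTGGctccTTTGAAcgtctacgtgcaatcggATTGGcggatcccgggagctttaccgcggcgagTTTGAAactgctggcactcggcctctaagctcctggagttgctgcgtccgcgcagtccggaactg
Top2a (chr11:99024140-99024439, minus strand, GRCm38.p6): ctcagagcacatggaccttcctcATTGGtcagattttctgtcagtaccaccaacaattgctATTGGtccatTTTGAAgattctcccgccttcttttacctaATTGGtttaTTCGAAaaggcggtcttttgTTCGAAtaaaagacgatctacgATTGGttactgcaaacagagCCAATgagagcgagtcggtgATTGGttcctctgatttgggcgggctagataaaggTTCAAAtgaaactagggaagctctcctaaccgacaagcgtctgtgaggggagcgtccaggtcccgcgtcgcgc
Kif11 (chr19:37376132-37376431, plus strand, GRCm38.p6): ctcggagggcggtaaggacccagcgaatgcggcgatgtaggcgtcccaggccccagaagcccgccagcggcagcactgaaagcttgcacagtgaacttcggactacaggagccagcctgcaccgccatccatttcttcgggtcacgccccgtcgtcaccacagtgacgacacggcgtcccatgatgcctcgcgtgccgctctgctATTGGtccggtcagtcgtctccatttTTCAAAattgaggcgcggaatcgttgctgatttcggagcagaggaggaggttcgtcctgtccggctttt
Mcm6 (chr1:128359656-128359955, minus strand, GRCm38.p6): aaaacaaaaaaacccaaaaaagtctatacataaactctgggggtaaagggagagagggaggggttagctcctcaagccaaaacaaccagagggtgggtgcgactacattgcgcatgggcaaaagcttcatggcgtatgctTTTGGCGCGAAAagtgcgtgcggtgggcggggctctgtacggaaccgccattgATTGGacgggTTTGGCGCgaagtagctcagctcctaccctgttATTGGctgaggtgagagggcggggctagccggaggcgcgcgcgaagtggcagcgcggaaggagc
Mcm5 (chr8:75109259-75109558, plus strand, GRCm38.p6): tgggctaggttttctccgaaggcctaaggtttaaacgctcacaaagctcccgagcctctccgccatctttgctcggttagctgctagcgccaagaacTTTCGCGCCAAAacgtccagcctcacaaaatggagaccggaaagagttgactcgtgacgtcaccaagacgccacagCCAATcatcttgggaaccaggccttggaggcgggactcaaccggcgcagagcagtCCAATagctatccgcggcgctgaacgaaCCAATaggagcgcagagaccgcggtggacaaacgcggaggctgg

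All of the 4 mitotic windows hold a CHR beside at least 1 CCAAT box, and both Mcm windows hold E2F matches and CCAAT boxes but no CHR. Over the class, 21 of 27 mitotic members (77.8%) held a CHR, against 2 of 11 S phase members (18.2%) and 19.4% of the windows of all 27025 genes. CCAAT was found in 20 of 27 mitotic members (74.1%) and 8 of 11 S phase members (72.7%), against 37.9% of all windows. An E2F match was found in 5 of 11 S phase members (45.5%) and in 1 of 27 mitotic members (3.70%), Cdk1, against 2.32% of all windows. The windows of the S phase members Rrm1 and Tyms, unlike the Mcm windows shown, held no E2F match. The S phase members with a CHR were Mcm2 and Mcm7, and Mcm2 held no E2F match. The mitotic members with a window but no CHR were Ccnb1, Cenpe, Nusap1, Birc5, Melk and Nuf2. A CHR and CCAAT together were found in 18 of 27 mitotic members (66.7%), 2 of 11 S phase members, and 7.70% of all windows. Of 30 CHR matches in mitotic members, 20 lay within 50 bases of the start. These counts describe letters in a window and were not tested; a match is not a shown binding site.

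In wild-type offspring, mitotic genes were higher when the sire had eaten the low protein diet. Of the 24 mitotic members tested, 18 rose and 0 fell in WT_LPD against WT_CD (limma, Benjamini-Hochberg adjusted over 13542 genes, passing at adjusted p under 0.05), where 2.78% of all genes tested rose. The median log2 difference of the mitotic members was 0.91, beside 0.00 over all genes. All 24 had a higher mean in WT_LPD, as did 51.0% of all genes; the members move together from sample to sample, so such counts are not independent. In bulk liver, more dividing cells and more of these transcripts per cell cannot be told apart.

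**Figure D1:**
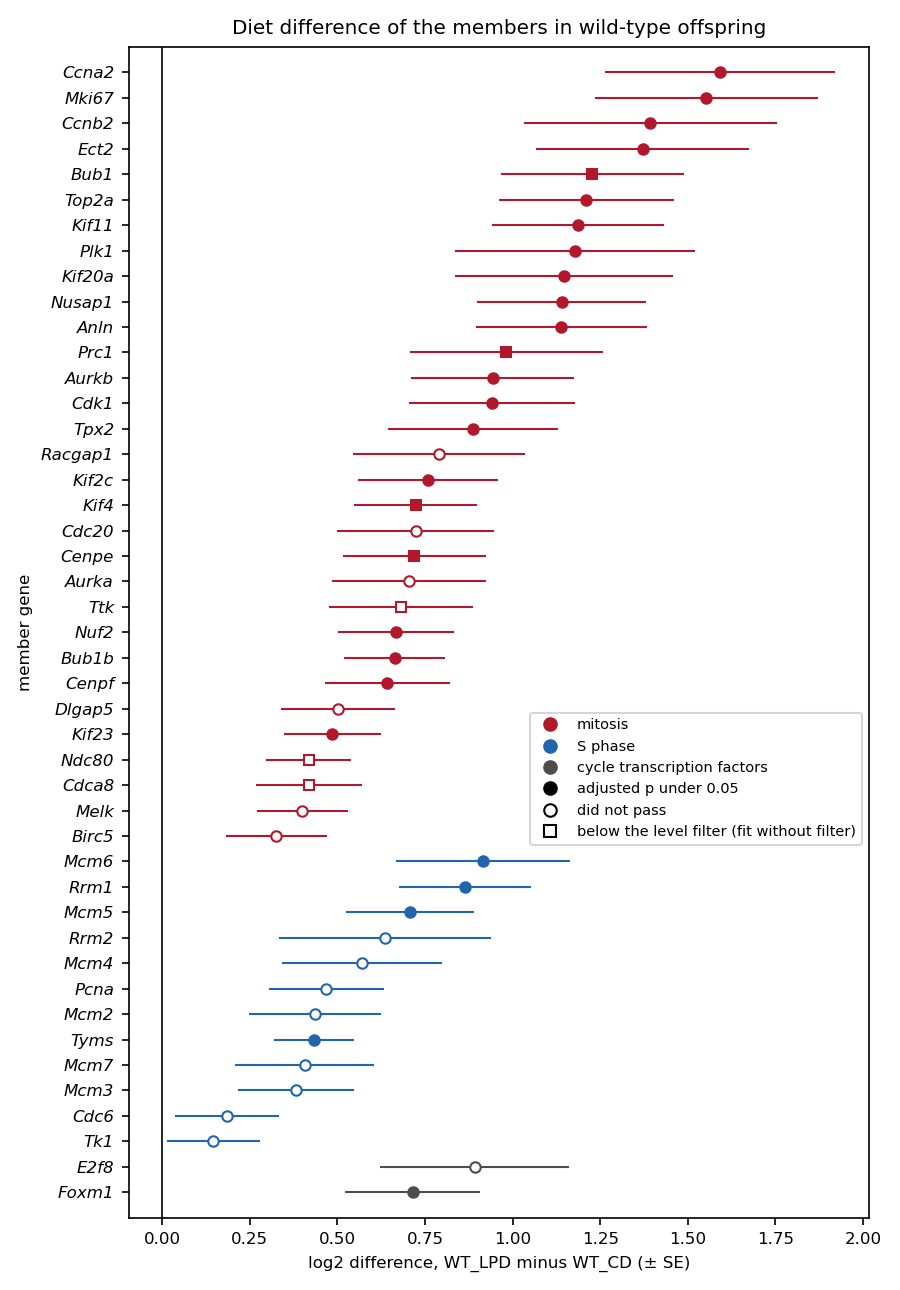
Log2 difference between WT_LPD (n = 8) and WT_CD (n = 7) for each of the 45 annotated members, with its standard error; red marks mitotic, blue S phase and grey transcription factor genes, filled symbols passed at adjusted p under 0.05, and squares mark the 7 members below the level filter, taken from the fit without it. Every point lies above 0, from 0.15 for Tk1 to 1.59 for Ccna2.

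The cyclins were among the largest differences, and Cdk1 lay near the class median. Ccna2, the A type cyclin of S phase and early mitosis, ran from 5.18 to 8.07 with a median of 6.26 (log2 level) in WT_CD and from 7.20 to 8.42 with a median of 7.83 in WT_LPD. Its values in WT_CD were below all WT_LPD values in every sample but replicate 2, and its log2 difference was 1.59 ± 0.33 (SE), 3.01-fold, with a limma adjusted p of 0.00244. Ccnb2, a B type cyclin, rose by 1.39 ± 0.36, and Cdk1, the kinase that these cyclins activate, rose by 0.94 ± 0.24. Of the other mitotic kinases, Plk1, which acts in spindle assembly and mitotic entry, rose by 1.18 ± 0.34, and Aurkb, the kinase of the chromosomal passenger complex, rose by 0.94 ± 0.23. Aurka, the spindle pole kinase, differed by 0.70 ± 0.22 (limma adjusted p = 0.0602) and Melk by 0.40 ± 0.13 (adjusted p = 0.0763), which did not pass.

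Mki67, which codes for the Ki-67 protein used as a marker of dividing cells, is the member with the smallest p. In WT_CD it read 5.37, 8.04, 6.61, 5.31, 7.07, 7.18 and 5.24 on the log2 scale in replicates 1, 2, 3, 4, 6, 7 and 8 (replicate 4 standing for 4 and 5). In WT_LPD it read 8.33, 7.91, 7.81, 8.44, 7.21, 8.15, 7.33 and 8.46 in replicates 1 to 8. Thus 6 of the 7 control samples lay below every low protein sample, and replicate 2 of WT_CD lay among the high ones. The group means were 6.40 ± 1.11 (SD, n = 7) and 7.96 ± 0.48 (SD, n = 8), a log2 difference of 1.55 ± 0.32 (SE), 2.93-fold, with a limma adjusted p of 0.00227.

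Genes that shape chromosomes and the spindle moved in the same direction. Top2a, the topoisomerase that untangles sister chromatids, ran from 4.59 to 6.80 (median 5.54) in WT_CD and from 5.89 to 7.40 (median 6.86) in WT_LPD, a rise of 1.21 ± 0.25 (SE, limma adjusted p = 0.00248). The groups overlapped in part of their range. Kif11, the motor that pushes spindle poles apart, ran from 5.05 to 7.02 (median 5.48) and from 6.23 to 7.50 (median 6.94), a rise of 1.19 ± 0.25 (adjusted p = 0.00241 by limma). Replicate 2 was the single WT_CD sample within its WT_LPD range. Nusap1, a microtubule-bundling protein, ran from 4.84 to 6.64 (median 5.52) and from 5.77 to 7.23 (median 6.61), a rise of 1.14 ± 0.24 (limma adjusted p = 0.00318). Among the other motors and spindle proteins, Kif20a rose by 1.15 ± 0.31, Tpx2 by 0.89 ± 0.24, Kif2c by 0.76 ± 0.20 and Kif23 by 0.49 ± 0.14.

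At the kinetochore and its checkpoint, Bub1b, which holds back anaphase until chromosomes attach, rose by 0.66 ± 0.14. Nuf2, a subunit of the Ndc80 complex, rose by 0.67 ± 0.17, and Cenpf, a kinetochore protein of late G2, rose by 0.64 ± 0.18. Cdc20, the activator of the anaphase-promoting complex, differed by 0.72 ± 0.23 (limma adjusted p = 0.0602). Birc5, the survivin subunit of the passenger complex, differed by 0.32 ± 0.14 (adjusted p = 0.248) and the spindle protein Dlgap5 by 0.50 ± 0.16 (adjusted p = 0.0766), which did not pass either.

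In cytokinesis, Ect2, the exchange factor that sets off the contractile ring, rose by 1.37 ± 0.30. Anln, which links that ring to the membrane, ran from 4.43 to 6.75 (median 5.37) in WT_CD and from 5.82 to 7.24 (median 6.60) in WT_LPD, a rise of 1.14 ± 0.24 (SE, limma adjusted p = 0.00357). Racgap1, the partner of Ect2 at the midzone, differed by 0.79 ± 0.25 (limma adjusted p = 0.0602). For the 7 members under the filter, a fit of all 19938 genes gave a rise for Bub1 (1.23 ± 0.26), Prc1 (0.98 ± 0.27), Kif4 (0.72 ± 0.18) and Cenpe (0.72 ± 0.20), with 1.71% of genes rising in that fit; Ttk, Ndc80 and Cdca8 differed by 0.68 ± 0.20, 0.42 ± 0.12 and 0.42 ± 0.15. Plk1 did not pass in that fit.

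The S phase members were higher in WT_LPD too, by less. Of 12 tested, 4 rose and 0 fell, beside the same 2.78% of all genes; all 12 had a higher mean, and their median log2 difference was 0.45. Rrm1, the large subunit of ribonucleotide reductase, ran from 6.32 to 7.93 (median 7.46) in WT_CD and from 7.83 to 8.66 (median 8.16) in WT_LPD, a rise of 0.86 ± 0.19 (SE), 1.82-fold, with a limma adjusted p of 0.00417. Its overlap came from WT_CD replicate 2 alone. Mcm6, a helicase subunit, ran from 5.70 to 7.53 (median 6.84) and from 7.15 to 8.12 (median 7.51), a rise of 0.92 ± 0.25 (limma adjusted p = 0.0269). Mcm5 ran from 6.25 to 7.57 (median 6.96) and from 7.24 to 8.22 (median 7.55), a rise of 0.71 ± 0.18 (adjusted p = 0.0192 by limma). Tyms, which makes thymidylate, ran from 6.83 to 7.56 (median 7.21) and from 7.42 to 7.96 (median 7.64), a rise of 0.43 ± 0.11 (limma adjusted p = 0.0214).

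The other helicase subunits and the nucleotide and loading genes did not pass. Mcm4 ran from 5.75 to 6.92 (median 6.47) in WT_CD and from 6.52 to 7.76 (median 6.85) in WT_LPD, a difference of 0.57 ± 0.23 (SE, limma adjusted p = 0.185). Mcm2 differed by 0.44 ± 0.19, Mcm7 by 0.41 ± 0.20 and Mcm3 by 0.38 ± 0.16. Pcna ran from 8.62 to 9.91 (median 9.28) in WT_CD and from 9.55 to 10.06 (median 9.87) in WT_LPD, a difference of 0.47 ± 0.16 (limma adjusted p = 0.106). The smallest differences were those of Cdc6 (0.18 ± 0.15) and Tk1, thymidine kinase (0.15 ± 0.13), while Rrm2, the small reductase subunit, differed by 0.64 ± 0.30 with wide spread in both groups. At an unadjusted p under 0.05, 10 of the 12 S phase members and all 24 mitotic members were higher, beside 10.2% of all genes.

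Of the transcription factors, Foxm1, which drives mitotic genes in G2, ran from 5.29 to 6.72 (median 5.52) in WT_CD and from 6.08 to 6.80 (median 6.33) in WT_LPD. It rose by 0.71 ± 0.19 (SE, limma adjusted p = 0.0263), and replicate 2 was again the single control sample within the low protein range. E2f8, a repressor of the E2F family that is itself made in S phase and is known for its part in hepatocyte polyploidy, ran from 5.39 to 7.23 (median 6.46) and from 6.25 to 7.94 (median 7.34). Its difference of 0.89 ± 0.27 fell just short of the threshold (limma adjusted p = 0.0509).

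For 0 of the 38 members tested did every WT_LPD sample lie above every WT_CD sample, while this held for 0.45% of all genes. Without WT_CD replicate 2 it held for 12 members (Mki67, Ccna2, Ccnb2, Kif11, Kif20a, Aurka, Plk1, Ect2, Racgap1, Rrm1, Mcm6 and Foxm1) and for 0.945% of all genes; that sample was left out after its values were seen. The count of risen members rested on single samples and on the estimate of spread. Without WT_CD replicate 8, the sample lowest in both classes, 8 mitotic members and 1 S phase member rose, beside 186 of all 13542 genes. Without WT_LPD replicate 8, 12 mitotic and 2 S phase members rose, beside 275 of all genes. With every sample kept, 377 of all genes rose. In a fit of these 2 groups alone, 4 mitotic members (Ccna2, Kif11, Bub1b and Ect2) and Rrm1 rose, beside 0.901% of all genes.

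The array sets gave like sizes and unlike counts. In set A alone (3 samples against 3) the median log2 difference was 0.88 for mitotic and 0.55 for S phase members; 21 mitotic and 4 S phase members rose (Rrm1, Mcm6, Mcm7 and Pcna), beside 9.53% of all genes. In set B alone (5 against 4) the medians were 0.92 and 0.43, and Ect2 and Rrm1 were the members that rose, beside 3.09% of all genes. Mki67 differed by 1.63 in set A (limma adjusted p = 0.0035) and 1.52 in set B (limma adjusted p = 0.0518). Pcna differed by 0.88 in set A (limma adjusted p = 0.0024) and 0.15 in set B (adjusted p = 0.662), and Tk1 by -0.22 and 0.39.

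**Figure D2:**
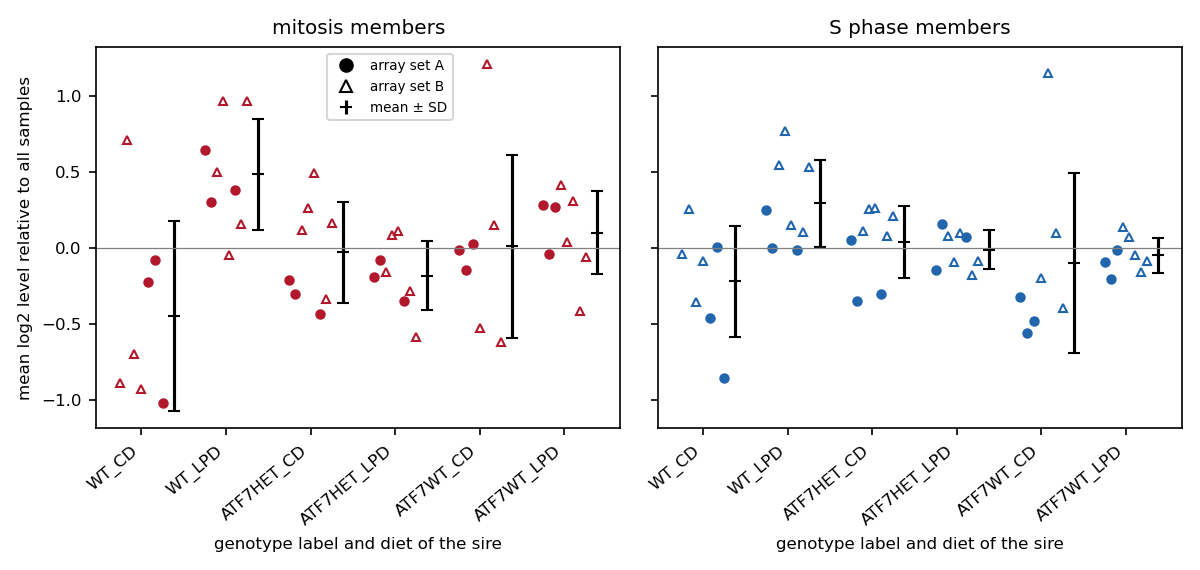
Mean log2 level of the 24 mitotic members (left) and the 12 S phase members (right) in each of the 46 samples, relative to the mean over all samples, by group; circles are array set A, triangles array set B, and bars are the mean with its SD. WT_CD spans -1.02 to 0.71 for mitotic members, and ATF7WT_CD replicate 5 is the highest sample in both panels.

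Averaged over a class, the wild-type groups were at the ends of the range. The mitotic class mean, relative to all samples, was -0.45 ± 0.63 (SD, n = 7) in WT_CD and 0.49 ± 0.36 (SD, n = 8) in WT_LPD. The other groups lay between them, from -0.18 ± 0.23 (SD, n = 8) in ATF7HET_LPD to 0.10 ± 0.27 (SD, n = 8) in ATF7WT_LPD. The S phase class mean was -0.22 ± 0.37 in WT_CD and 0.29 ± 0.29 in WT_LPD, with the other groups from -0.10 ± 0.59 (SD, n = 7) in ATF7WT_CD to 0.04 ± 0.24 (SD, n = 8) in ATF7HET_CD. Between the wild-type ends, each of the other groups differed from its neighbour in the order of mitotic means by less than the SD of either.

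Within WT_CD the gap between the classes varied from sample to sample. The mitotic class means of replicates 1, 2, 3, 4, 6, 7 and 8 were -0.89, 0.71, -0.69, -0.93, -0.22, -0.08 and -1.02. The S phase class means of the same samples were -0.04, 0.26, -0.36, -0.09, -0.46, 0.00 and -0.85. Replicates 1 and 4 thus had low mitotic means with S phase means near the average of all samples, whereas replicate 8 was low in both and replicate 2 above average in both. The S phase mean minus the mitotic mean was 0.85 in replicate 1 and 0.84 in replicate 4, the highest of all 46 samples.

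In WT_LPD the mitotic class means ran from -0.04 in replicate 5 to 0.97 in replicates 4 and 8, and the S phase means from -0.01 in replicate 6 to 0.77 in replicate 4. The S phase mean minus the mitotic mean averaged 0.23 ± 0.50 (SD, n = 7) in WT_CD and -0.19 ± 0.23 (SD, n = 8) in WT_LPD, and the ranges, -0.46 to 0.85 and -0.43 to 0.19, overlapped. The median diet difference of the S phase members minus that of the mitotic members was -0.46 on the log2 scale. Because the members were chosen with earlier results known, this gap between the classes was not tested.

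**Figure D3:**
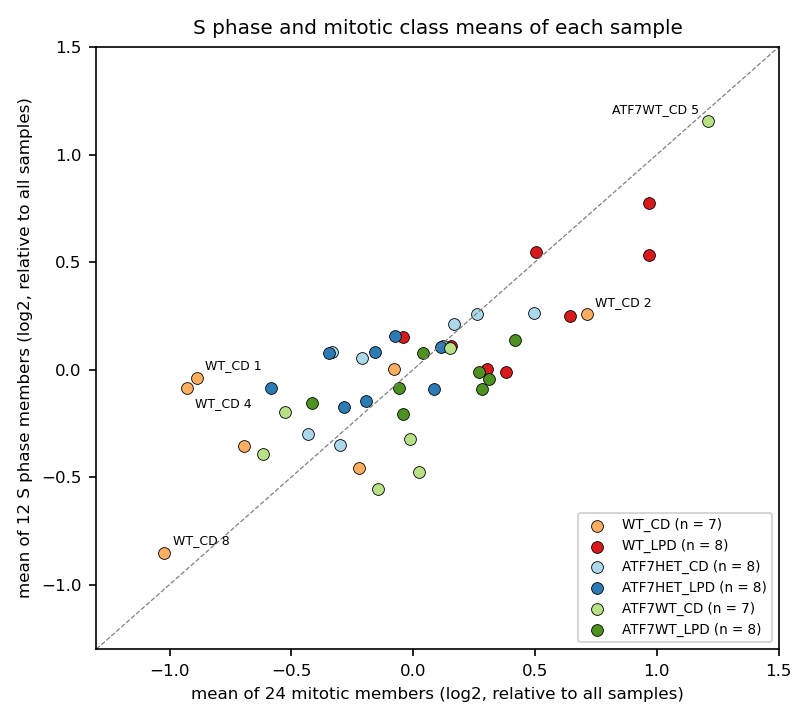
Mean of the 12 S phase members against the mean of the 24 mitotic members in each of the 46 samples, both as log2 level relative to all samples; colours are the 6 groups and the dashed line marks equal values. WT_CD replicates 1 and 4 lie far above the line at low mitotic means, WT_CD replicate 8 is low on both axes, and ATF7WT_CD replicate 5 is high on both, at 1.21 and 1.15.

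The diet of the sire left no member past the threshold in the other genotype labels. In ATF7+/- offspring 0 of 38 members changed (limma, adjusted p under 0.05; 0 at an unadjusted p under 0.05), beside 0% of all genes at the adjusted and 1.31% at the unadjusted threshold. The median log2 difference was -0.12 for mitotic and -0.04 for S phase members, from -0.35 for Ccnb2 to 0.14 for E2f8. The direction turned with the array set: in set A the medians were 0.11 for mitotic and 0.17 for S phase members, with 18 of 24 and 11 of 12 higher, and in set B they were -0.25 and -0.20, with 0 of 24 and 0 of 12 higher. In ATF7+/+ offspring 0 of 38 members changed as well (limma, with 0 at an unadjusted p under 0.05), beside 0.00738% of all genes at the adjusted and 4.59% at the unadjusted threshold; the medians were 0.07 for both classes, from -0.18 for Tk1 to 0.36 for E2f8. Here the S phase median was 0.46 in set A (11 of 12 higher) and -0.18 in set B (1 of 12 higher). The mitotic medians were 0.21 (24 of 24 higher) and 0.01 (13 of 24 higher). The set B control samples include ATF7WT_CD replicate 5, with class means of 1.15 (S phase) and 1.21 (mitotic). Replicates 4, 6 and 7 of that set had S phase means of -0.20, 0.10 and -0.39 and mitotic means of -0.53, 0.15 and -0.61. The set B differences without replicate 5 were not fitted. No member passed in either set in either label (limma). Mki67 ran from 7.05 to 7.92 in ATF7HET_CD and from 6.58 to 7.53 in ATF7HET_LPD, a difference of -0.34 ± 0.31 (SE). It ran from 6.10 to 8.61 in ATF7WT_CD and from 6.71 to 7.99 in ATF7WT_LPD, a difference of 0.16 ± 0.32 (SE), with the ranges overlapping in both labels.

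**Figure D4:**
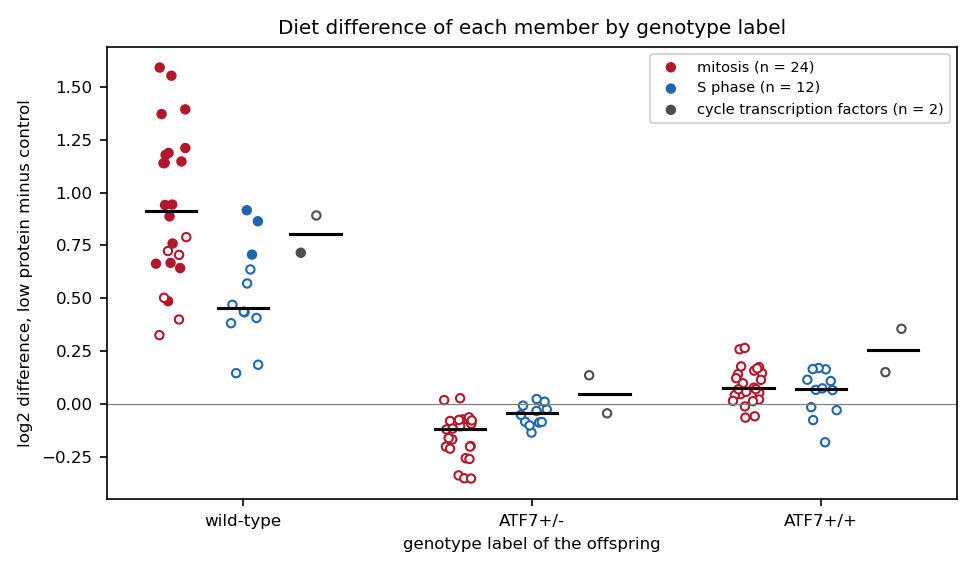
Log2 difference between offspring of low protein and control sires for each of the 38 members tested, by genotype label and class; filled points passed at adjusted p under 0.05 and bars are class medians. The filled points are all in the wild-type label, where medians are 0.91 for mitotic and 0.45 for S phase members, while the medians in the other labels lie between -0.12 and 0.25.

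Whether the diet difference itself differed between labels was tested as an interaction. Wild-type minus ATF7+/- gave 5 members past the threshold, all mitotic, beside 0.569% of all genes in that direction. The differences of differences were 1.94 ± 0.46 (SE) for Ccna2 (limma adjusted p = 0.0266), 1.89 ± 0.44 for Mki67 (adjusted p = 0.0261), 1.41 ± 0.35 for Top2a (0.0396, adjusted), 1.36 ± 0.34 for Kif11 (0.0445, adjusted) and 1.35 ± 0.34 for Nusap1 (0.0396, adjusted). No S phase member passed (limma; 5 of 12 were higher at an unadjusted p under 0.05, beside 5.82% of all genes); Mcm5 had the lowest adjusted p, 0.123, with 0.84 ± 0.25. Foxm1 gave 0.76 ± 0.27 and E2f8 0.76 ± 0.37.

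That count depended on single samples in both directions. It was 0 without WT_CD replicate 1, 4 or 8, WT_LPD replicate 8 or ATF7HET_LPD replicate 8, and between 1 and 3 without WT_CD replicate 6, WT_LPD replicate 1, 3, 4 or 6, ATF7HET_CD replicate 1, 3, 4, 5 or 8, or ATF7HET_LPD replicate 3, 6 or 7. It was 19 without WT_CD replicate 2 and 13 without ATF7WT_CD replicate 5. With the array set as a block it was 10, including the 5 genes just named, beside 1.7% of all genes in that direction. With replicate number blocked inside each label it was 4, without Top2a. In set A alone it was 5, with Ccna2 and Nusap1 shared, beside 1.23% of all genes, and in set B alone 0, beside 0.975%. The share of all genes is not given for the fits without 1 sample or with replicate number blocked. Whether those shifts are particular to the members was not tested.

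Wild-type minus ATF7+/+ gave 0 members past the threshold (limma), beside 0.0222% of all genes. At an unadjusted p under 0.05, 25 of 38 were higher, beside 4.81% of all genes. Nusap1 had the lowest adjusted p, 0.203, with 1.20 ± 0.34 (SE), and Mki67 gave 1.40 ± 0.45. The difference between the ATF7+/+ and ATF7+/- diet effects left 0 members past the adjusted or the unadjusted threshold (limma), beside 0% and 2.81% of all genes. Both interactions with wild-type share the wild-type samples, and so are not independent of each other.

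Between genotype labels, averaged over diet, 0 of 38 members differed in each of the 3 comparisons (limma, adjusted p under 0.05), beside 0.00738% of all genes for ATF7+/- against wild-type, 0.155% for ATF7+/- against ATF7+/+ and 0.0222% for ATF7+/+ against wild-type. At an unadjusted p under 0.05, 0 members differed between ATF7+/- and wild-type liver, Tk1 was lower in ATF7+/+ than in both other labels, with log2 differences of 0.21 ± 0.09 (ATF7+/- minus ATF7+/+, SE) and -0.20 ± 0.09 (ATF7+/+ minus wild-type), and E2f8 was higher in ATF7+/+ than in wild-type liver by 0.52 ± 0.19. At that threshold 6.82% of all genes differed for ATF7+/- against wild-type, 11.4% for ATF7+/- against ATF7+/+ and 12.4% for ATF7+/+ against wild-type. In array set A alone, 9 mitotic members and E2f8 were lower in ATF7+/- than in ATF7+/+ liver, and Mcm6 and Tk1 were higher, where 9.36% of all genes were lower and 13.5% higher. Plk1 differed by -0.61 there (limma adjusted p = 0.000589) and Mcm6 by 0.62 (limma adjusted p = 0.035). In set B the same differences were -0.16 and 0.08, and no member passed (limma).

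From sample to sample, the members of a class varied together. Deviations from the group means were correlated over the 46 samples, which share tissue and platform but fall into array sets A (18 samples) and B (28 samples). The median Pearson r between pairs was 0.80 for mitotic with mitotic members, 0.72 for S phase with S phase members, and 0.58 for mitotic with S phase members. With deviations taken within group and array set, these medians were 0.76, 0.69 and 0.59 in set A, and 0.89, 0.81 and 0.72 in set B. Of the 24 mitotic members, 23 were closer to the mitotic than to the S phase mean, the exception being Melk (r = 0.67 and 0.69). Each member was left out of its own class mean for these values. Of the 12 S phase members, only Tyms was closer to the mitotic mean (r = 0.78 and 0.67).

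**Figure D5:**
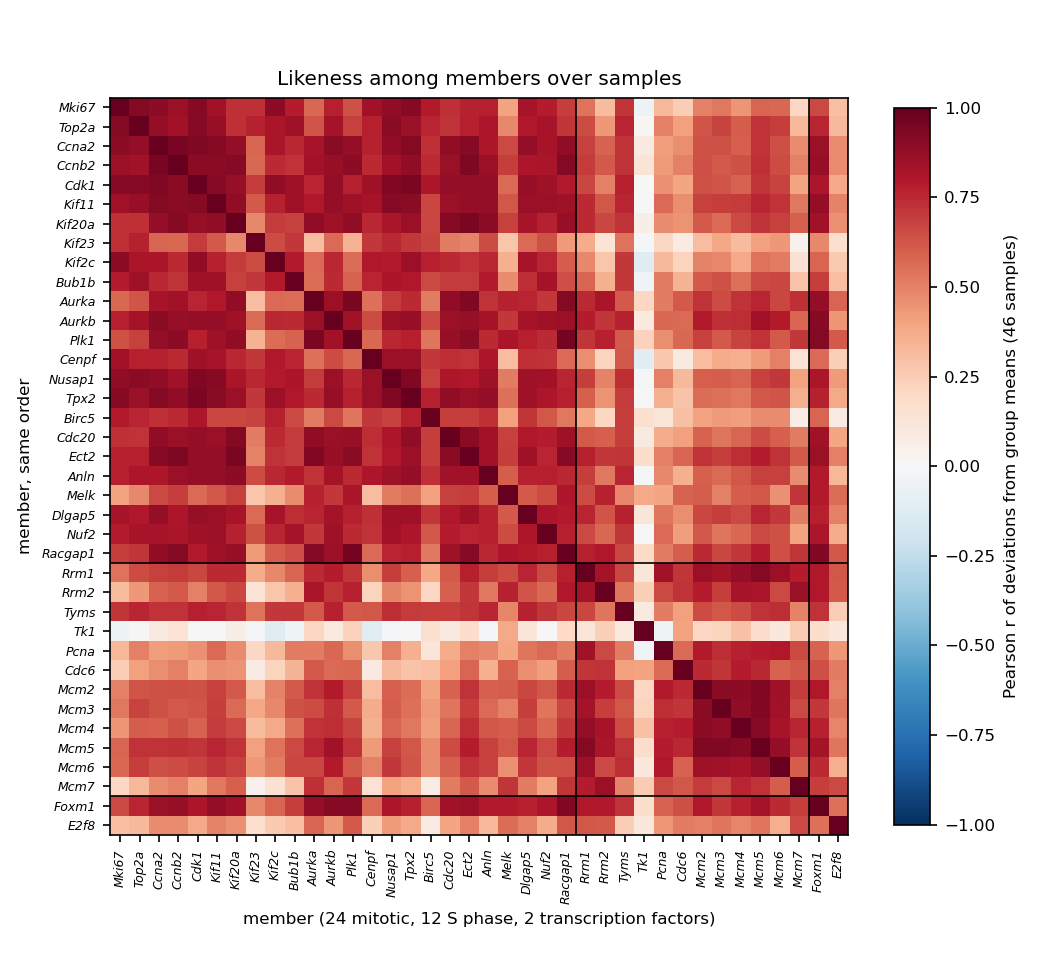
Pearson correlation between each pair of the 38 members over 46 samples, computed on deviations from group means; rows and columns are in the same order and black lines part the 24 mitotic members, the 12 S phase members, and Foxm1 and E2f8. The mitotic block is the darkest (median r 0.80), the blocks between classes are paler (median 0.58), and the row of Tk1 is pale, from -0.12 with Kif2c to 0.40 with Cdc6.

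The class means themselves correlated with r = 0.72 (Spearman rho 0.61, n = 46), which was 0.57 without the 2 samples farthest from the median, 0.81 in set A (n = 18) and 0.83 in set B (n = 28). Tk1 stood apart from its class, with r = 0.08 to the mitotic and 0.22 to the S phase mean. Foxm1 followed both means, with r = 0.89 to the mitotic and 0.84 to the S phase mean, and E2f8 followed them less, with r = 0.47 and 0.58. ATF7WT_CD replicate 5, which stood 1.21 above the average of all samples in the mitotic and 1.15 in the S phase mean, is part of these correlations.

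Outside the members, the 10 genes whose deviations were most like the mitotic mean over 46 samples were Prr11 (r = 0.96), Cdca3, Cip2a, Kif18b, Sgo2a, Ckap2l, Mad2l1, Stmn1, Esco2 and Nek2 (r = 0.91). Of these, 7 are in the list of further mitotic genes, while Prr11, Cip2a and Esco2 are in none of the lists used. Mad2l1 is a spindle checkpoint protein, Esco2 joins sister chromatids, and Sgo2a protects their cohesion. In wild-type offspring Esco2 differed with diet by 1.30 ± 0.29 (SE, limma adjusted p = 0.00437) and Stmn1 by 0.60 ± 0.24 (adjusted p = 0.182).

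Other genes of the cycle were read from lists by function. Of 36 further mitotic genes tested, 17 rose and 0 fell in WT_LPD against WT_CD, beside 2.78% of all genes, with a median log2 difference of 0.57. Kif18b, a kinesin, rose by 0.72 ± 0.15, Cenpa, the centromeric histone, by 0.53 ± 0.12, and Kif22 by 0.80 ± 0.18. Of 26 genes of origin firing and the replication fork, Pole, the leading strand polymerase, rose by 0.78 ± 0.20; the median was 0.23. Of 10 DNA damage checkpoint genes, the helicase Blm rose by 0.48 ± 0.10 (median 0.17). Of 20 G1 cyclins, kinases and inhibitors and 15 E2F and DREAM factors, 0 changed (limma; 4 and 2 were higher at an unadjusted p under 0.05), with medians of 0.04 and 0.02. In ATF7+/- and in ATF7+/+ offspring, 0 genes of these lists passed for diet (limma); at an unadjusted p under 0.05, 1 gene of the G1 list was higher and 1 of the E2F and DREAM list lower in each label.

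Lists of liver cell type markers had smaller median differences than the mitotic members in the wild-type diet comparison. Of 12 hepatocyte markers tested, 0 changed (limma; 2 were higher at an unadjusted p under 0.05), with a median of -0.005. The counts of risen markers are to be read beside the 2.78% of all genes that rose. Stellate cell and fibroblast markers had 3 of 12 risen, Acta2 (0.67 ± 0.17), Lrat (0.53 ± 0.15) and Reln (0.42 ± 0.12), with a median of 0.29. Their mean level, relative to all samples, ran from -0.54 to 0.02 in WT_CD and from -0.05 to 0.25 in WT_LPD. Among 10 endothelial markers Cdh5 rose by 0.34 ± 0.08 (median 0.21), and among 7 erythroid markers Alas2, the first enzyme of erythroid heme synthesis, rose by 0.84 ± 0.22 (median 0.04). None of 6 granulocyte, 6 lymphocyte, 11 Kupffer cell and 4 cholangiocyte markers changed (limma; 1 granulocyte and 1 cholangiocyte marker were lower at an unadjusted p under 0.05), with medians from -0.06 to 0.03. Of 10 fetal liver and imprinted growth genes, Mest (1.07 ± 0.20), Igf2bp3 (0.46 ± 0.09) and Gpc3 (1.23 ± 0.33) rose.

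Several of these lists varied with the mitotic mean within groups over the 46 samples. The hepatocyte mean had r = -0.60 (-0.50 when the 2 samples farthest from the median were left out, -0.65 within set A and -0.57 within set B). The stellate cell mean had r = 0.49 (0.43, 0.66 and 0.60 in the same order), and the mean of 3 Y-linked genes 0.41 (0.47, 0.64 and 0.44). The granulocyte mean had r = -0.37 (-0.20, -0.87 and -0.39), the Kupffer cell mean 0.26 (0.12, 0.49 and 0.29) and the erythroid mean -0.25 (-0.07, -0.25 and -0.43), each weaker without those samples. The fetal liver and imprinted growth mean had r = 0.23 (0.26, 0.07 and 0.50). The lymphocyte, endothelial and cholangiocyte means had r = -0.19, -0.07 and 0.15 over all samples. The Y-linked mean ran from -2.76 to 1.35 in WT_CD and from -2.89 to 1.56 in WT_LPD, so both groups held animals with high and with low values. With that mean as a covariate, 22 mitotic and 4 S phase members rose with the low protein diet in wild-type offspring, beside 3.2% of all genes. The part of the other cell types in the difference between the mitotic members was not tested.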

How the data were processed

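Liver RNA of 48 F1 mice was measured on Affymetrix arrays. The authors deposited log2 levels, for which the submitters' processing notes name RMA and Expression Console; whether every array was normalised in a single run is not stated. Array medians of the 35556 probe sets ran from 5.89 to 6.12, and the values were used as deposited; symbols came from the platform annotation. Arrays have no depth, so their number limits the precision.

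In R 4.3.3, limma 3.58.1 estimated the group means of each gene from 46 samples of 6 groups, with contrasts for diet within label, label, and their interaction. Tests were two-sided, adjusted by Benjamini-Hochberg over 13542 genes, and the fit was checked on simulated data. Class means are means of log2 values after centring each gene over samples. Figures used matplotlib 3.10.9.

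The members, lists and tests were chosen with earlier results of these data known. Values by group are given for Mki67, the 6 mitotic and 6 S phase members with the smallest p in the wild-type diet comparison, Foxm1, E2f8 and members passing elsewhere; other lists name up to 4 genes by p among those that passed. Same-numbered samples of the 2 diets correlated in ATF7+/- (r of their deviations 0.18 to 0.74) and ATF7+/+ (0.30 to 0.67) but not throughout wild-type offspring (-0.47 to 0.50). In the first 2 labels each such pair lay in 1 array set. In wild-type offspring, replicates 3, 4 and 6 shared a set (0.22, 0.07 and 0.50), and replicates 1, 2, 7 and 8 did not (-0.24, -0.39, -0.47 and -0.22). Whether the numbers pair samples, or a shared array set gave the correlation, was not tested. Alternatives changed the filter, scaling, variance model, samples, array set, Y-linked covariate and replicate block.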

Additional observations from a re-analysis of the deposited data

Results flagged for a closer look

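A single sample stood away from the rest of its group by Dixon's criterion in 13 of 96 group checks on the class means and the members with values by group; chance flags about 1 in 20, and the members are not independent. ATF7WT_CD replicate 5 accounts for 10 of them: its mitotic class mean was 1.21 and its S phase class mean 1.15, with log2 levels of 7.69 for Kif11, 7.51 for Top2a, 7.33 for Nusap1, 7.16 for Anln, 8.50 for Mcm5, 8.66 for Mcm6, 10.62 for Pcna and 7.26 for Foxm1, each the highest of its group. Kif11 was also apart in WT_CD replicate 2 (7.02, the highest) and in ATF7HET_LPD replicate 8 (5.42, the lowest), and Nusap1 in ATF7HET_CD replicate 5 (6.96, the highest).

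The diet difference in wild-type offspring exceeded that in ATF7+/- offspring for 5 mitotic members by a test of the interaction: 1.94 for Ccna2, 1.89 for Mki67, 1.41 for Top2a, 1.36 for Kif11 and 1.35 for Nusap1 on the log2 scale.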

How the results depend on the processing

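In the wild-type diet comparison 36 of 38 members kept their direction under every setting, and 2 turned in array set A alone, Tk1 (-0.22) and Cdc6 (-0.13). Of 1693 values of members that passed, 0 reversed, 1506 stayed on their side of the threshold and 187 no longer passed. The wild-type count of 18 mitotic members became 7 of 8 tested with the filter at the 60th percentile, which tests fewer members. It became 4 with the compared groups alone and 1 in array set B. With array set blocked it was 23, beside 6.19% of all genes, and 23 with the Y-linked covariate added. Leaving out 1 sample gave 8 (without WT_CD replicate 8, beside 186 of all genes) to 23 (without WT_CD replicate 2, beside 469). The 4 S phase members became 1 with the compared groups alone and 1 in set B. They became 7 with array set blocked plus the Y-linked covariate, where 951 of all genes rose, against 377 with neither. Leaving out 1 sample gave 1 to 5. The 0 members with separate wild-type groups became 12 without WT_CD replicate 2, a setting chosen after seeing the data. Median centring moved the split of all genes from 377 higher and 110 lower to 373 higher and 39 lower.

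The 5 members whose diet difference exceeded that in ATF7+/- became 2 with no filter, 2 at the 60th percentile, 3 with median centring, 14 with array weights, 10 with array set blocked, 10 with the Y-linked covariate, 21 with both, and 0 in set B. Leaving out 1 sample gave 0 to 19. Of all genes, 1.7% passed in that direction with array set blocked, 0.775% with the Y-linked covariate and 0.975% in set B. That share is not given for the other settings of this count or for leaving out 1 sample. In set A alone, 2 members passed in the interaction with ATF7+/+, 1 for ATF7+/- against wild-type, 12 for ATF7+/- against ATF7+/+ and 3 for ATF7+/+ against wild-type, against 0 of each over all samples. The shares of all genes higher and lower in set A were, in the same order, 2.08% and 1%, 0.628% and 0.325%, 13.5% and 9.36%, and 11.2% and 17.4%. Apart from the 60th percentile, the cause of these changes in member counts was not tested. With replicate number as a block inside each label, 20 mitotic and 4 S phase members rose in wild-type offspring, beside 445 of all genes. Foxm1 and E2f8 both passed in that fit, and 4 members passed in the interaction, without Top2a. A block could not be fitted to the label comparisons, which lie between the blocks. Arrays give no counts, and 7 members lay below the level filter.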
